A study of Mus musculus with 16 samples.

Results

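The response of M-CSF primed bone marrow derived macrophages (BMDMs) on tissue culture treated (TC) dishes to lipopolysaccharide (LPS) was measured in 4 of the 16 libraries of the series, 2 of M-TC and 2 of M-TC-LPS. Bone marrow cells of male C57BL/6J mice, 8 weeks old, were grown for 7 days with 50 ng/ml M-CSF on TC plates, then given vehicle (M-TC) or 100 ng/ml LPS for 3 h (M-TC-LPS). No gene was altered in any group, and both groups carry the same M-CSF exposure, so the labels set them apart by LPS alone. The groups set beside them are M-noTC and M-noTC-LPS, the same cells grown on dishes without the surface treatment, and GM-TC and GM-TC-LPS, grown on TC plates with 20 ng/ml GM-CSF. The 2 libraries of a group are biological replicates as the study describes them, and RNA came from whole cultures after poly(A) selection, in which fewer cells of a type and less RNA per cell cannot be told apart. All genes that passed the expression filter, 12514 of 22287, were compared.

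LPS, a component of the outer membrane of Gram-negative bacteria, is carried by CD14 to the receptor pair TLR4 and MD-2. The adaptor MyD88 then leads to NF-kB and MAP kinase activation, while the adaptor TRIF leads to IRF3 and the induction of interferon-beta, which acts back on the macrophage through its own receptor and STAT proteins. Genes for inhibitors of these routes are themselves targets of them. M-CSF, the ligand of the receptor encoded by Csf1r, sustains the survival and proliferation of macrophages in bone marrow culture.

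Total counts were 18053977 and 19208104 in M-TC and 25727439 and 22129709 in M-TC-LPS. Levels are read counts relative to library totals scaled with edgeR's TMM factors (CPM). The factors were 1.39 and 1.39 in M-TC and 0.790 and 0.778 in M-TC-LPS, and the levels are not divided by gene length. With TMM the median gene had a log2 fold change of -0.0084, and by library size alone one of -0.83, so every fold change below is relative to the bulk of genes under TMM. The 9 macrophage markers summed to 25268 to 25767 CPM in M-TC and 28162 to 29007 CPM in M-TC-LPS. Of 35 heart muscle markers, 30 passed the filter and 27 of these were lower in M-TC-LPS, with a sum without Fabp3 of 96.9 and 55.7 CPM in M-TC and of 3.79 and 3.14 CPM in M-TC-LPS. Fabp3 was the member that was higher, at 8.69 and 8.38 CPM in M-TC and 52.2 and 49.2 CPM in M-TC-LPS. Other marker lists were low: T and NK cell markers summed to 1.18 to 2.47 CPM, and B and plasma cell markers, nearly all from Ighm, summed to 59.7 and 62.1 CPM in M-TC and 28.1 and 25.7 CPM in M-TC-LPS. Dendritic cell markers went from 1.32 and 1.46 CPM to 53.8 and 60.8 CPM, nearly all from the chemokine gene Ccl22.

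Upon LPS challenge, 2165 genes were induced, 17.3% of those tested, and 2315 were repressed, 18.5%, at a fold change above 2 and a Benjamini-Hochberg (BH) adjusted p under 0.05 in edgeR's quasi-likelihood test. The induced side reached further: 150 induced genes had a log2 fold change above 6 against 51 repressed genes below -6, and 213 and 123 lay between 4 and 6 in size. The median change was 2.07 among induced and -1.76 among repressed genes. Scaled by library size alone, 1188 genes were induced and 5216 repressed, which moves the share of lower calls from 51.7% to 81.4%. All 1188 induced genes were among the 2165 TMM calls, the rest of which lost their call. All 2315 repressed TMM calls were kept, and no called gene turned direction. Library size alone moved the fold changes down by a similar amount, to -0.83 for the median gene, so these overlaps were largely fixed beforehand. The M-TC and M-TC-LPS libraries did not overlap for 2157 of the induced and 2310 of the repressed genes, and for 85.8% of all tested genes.

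The calls can also be described by the share of each library's reads, without TMM factors. The classes come from the calls on these same libraries, which select for a rise of induced and a fall of repressed genes. The induced genes held 17.4% of the reads of both M-TC libraries and 48.4% and 49.4% in M-TC-LPS. The repressed genes fell from 7.67% and 7.65% to 1.34% and 1.3%, and the tested genes that were not called went from 74.9% in each M-TC library to 50.2% and 49.3%. The 20 induced genes with the largest gain alone went from 2.12% and 2.06% to 9.95% and 10.2%. Genes that were low at steady state and genes that were high were called at unlike rates. Of 1892 genes under 1 CPM in M-TC, 26.2% were induced and 14.8% repressed. Among 2963 genes at 1 to 10 CPM, the order turned, with 12.9% induced and 33.3% repressed. At 10 to 100 CPM, 6145 genes were called almost evenly, 15.9% induced and 15.2% repressed. At 100 CPM or more, 20.5% of 1514 genes were induced and 7.53% repressed. These shares describe calls, and the filter admits a gene that is low in M-TC only if it was higher in another group.

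**Figure D1:**
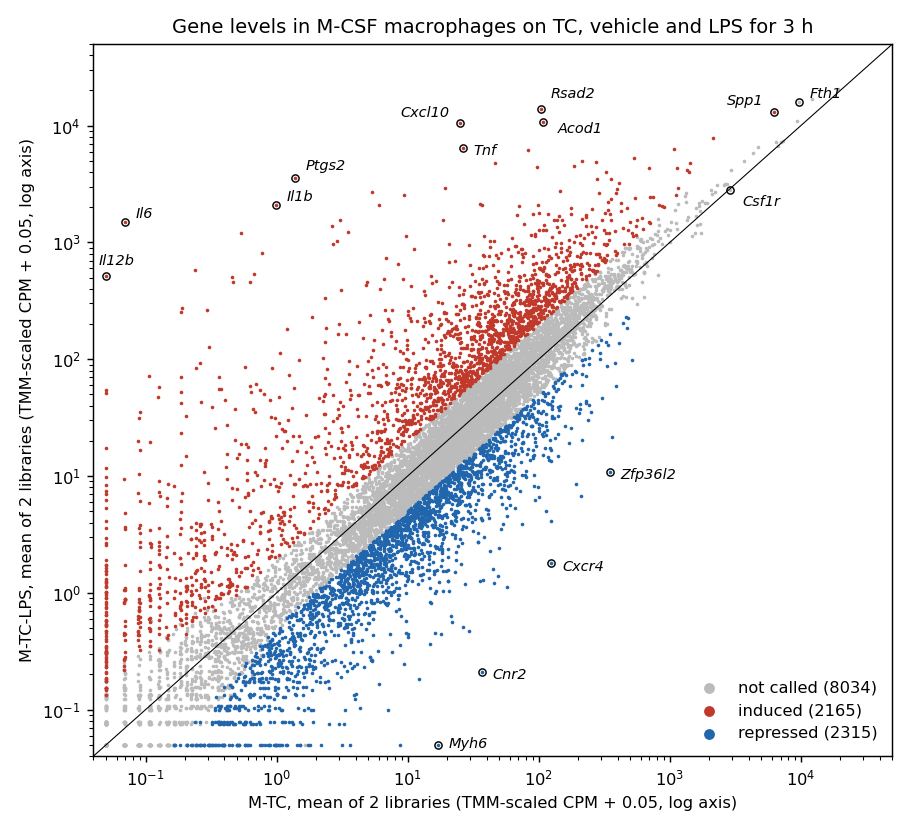
Mean level of each of the 12514 tested genes in M-TC (x axis) and M-TC-LPS (y axis), in TMM-scaled CPM plus 0.05 on log axes, coloured by call, with the line of equal levels. In all, 150 genes lay above a log2 fold change of 6 and 51 below -6, and Csf1r lay on the line.

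The most induced genes included inflammatory mediators that were almost silent at steady state. Transcripts of Il12b, the p40 subunit of IL-12 and IL-23, were at 0 and 0 CPM in M-TC and 474 and 565 CPM in M-TC-LPS. With no read in M-TC, the rise was at least 4481-fold against a floor of 3 counts per library. Il6, the acute phase cytokine, had 1 read in both M-TC libraries together and stood at 1344 and 1642 CPM in M-TC-LPS, a ratio of 76725 (exact 95% counting interval 13770.1 to 3030540.0). Both M-TC-LPS libraries were thus far above every M-TC library. Adamts4, an aggrecanase gene also without a read in M-TC, reached 53.4 and 56.4 CPM and rose at least 474-fold. The interferon-inducible chemokine Cxcl11 rose at least 439.6-fold, to 46.0 and 56.0 CPM. Sele, E-selectin, known from activated endothelium, rose at least 150.0-fold, to 17.6 and 17.2 CPM. For Rgs16, a regulator of G protein signaling, the bound was 99.8-fold. The 6 endothelial markers summed to 12.7 and 12.5 CPM in M-TC and to 85.9 CPM in each M-TC-LPS library, nearly all from the VEGF receptor gene Kdr, and Tek, Cldn5 and Emcn had no read in M-TC-LPS.

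Ptgs2, the inducible cyclooxygenase of prostaglandin synthesis, went from 1.48 and 1.2 CPM to 3382 and 3806 CPM, a log2 fold change of 11.39 ± 0.14 (SE; edgeR, BH-adjusted p = 3.5e-25). Nos2, inducible nitric oxide synthase, was at 0.518 and 0.449 CPM in M-TC and 1185 and 1241 CPM in M-TC-LPS (11.28 ± 0.15). Il1b, the inflammasome substrate, was at 0.758 and 1.12 CPM in M-TC and 2007 and 2197 CPM in M-TC-LPS (11.11 ± 0.11). The replicates lay close together beside these distances. The vasoconstrictor gene Edn1 had 7 reads in M-TC in all and reached 273 and 272 CPM, a ratio of 2016 (exact 95% counting interval 978 to 5016). The neutrophil attractants Cxcl1 and Cxcl3 rose by ratios of 3002 (exact 95% counting interval 1632 to 6260.0) and 1874 (exact 95% counting interval 909 to 4663).

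Ranked by the gain in TMM-scaled CPM rather than by fold, other genes led. Rsad2, which encodes the antiviral enzyme viperin, went from 98.4 and 111 CPM to 13042 and 14543 CPM (7.04 ± 0.073). Acod1, the enzyme that makes itaconate, went from 110.2 and 106 CPM to 10880.0 and 10627 CPM (6.64 ± 0.056; edgeR, BH-adjusted p = 6.1e-27). Cxcl10, a T cell attractant, was at 23.5 and 26.7 CPM in M-TC and 10507 and 10699.9 CPM in M-TC-LPS (8.72 ± 0.082). These 3 were already expressed at steady state, unlike Il12b and Il6. Tnf was at 26.6 and 26.1 CPM in M-TC and 6404 and 6456 CPM in M-TC-LPS (7.93 ± 0.086). Spp1, osteopontin, went from 6539 and 6008 CPM to 12624 and 13656 CPM and passed the threshold narrowly under TMM (1.07 ± 0.059). By library size alone, which put the median gene at -0.83, Spp1 was below a fold of 2. Fth1, ferritin heavy chain, stood at 9622 and 9609 CPM in M-TC and 16552 and 15456 CPM in M-TC-LPS, below a fold of 2 (0.73 under TMM and -0.092 under library size alone).

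**Figure D2:**
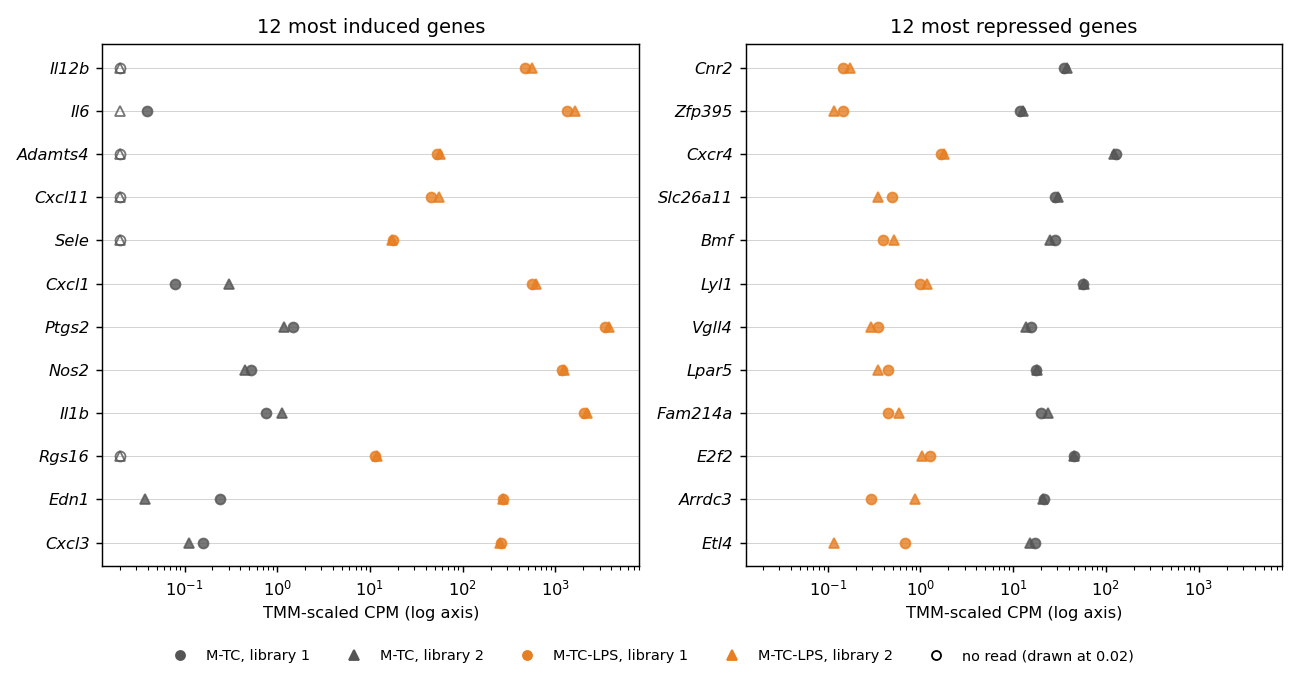
TMM-scaled CPM (log axis) in each of the 4 libraries for the 12 most induced and 12 most repressed genes at 10 CPM or more that were called in the same direction between M-noTC-LPS and M-noTC; open symbols mark libraries with no read. The 2 M-TC and 2 M-TC-LPS libraries are widely separated for every gene, with Il6 at 1344 and 1642 CPM in M-TC-LPS and Cnr2 at 35.6 and 38 CPM in M-TC.

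By function, 1132 of 1144 genes in 37 lists passed the filter, and 430 of them were induced and 121 repressed. Of all tested genes, 17.3% were induced and 18.5% repressed. The lists were chosen with earlier results of these data known, so these counts are a description. The 6 lists with a median log2 fold change above 2 were chemokines, cytokines, guanylate binding proteins and immunity related GTPases, antiviral interferon stimulated genes, NF-kB subunits and inhibitors, and costimulatory ligands. Only 3 lists had a median below that of all genes: mitosis, DNA replication, and LXR, PPAR gamma and lipid handling genes. The 19 lists whose median changed sign under library size alone are given with both values where they are described, and no other list did so under that scaling.

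**Figure D3:**
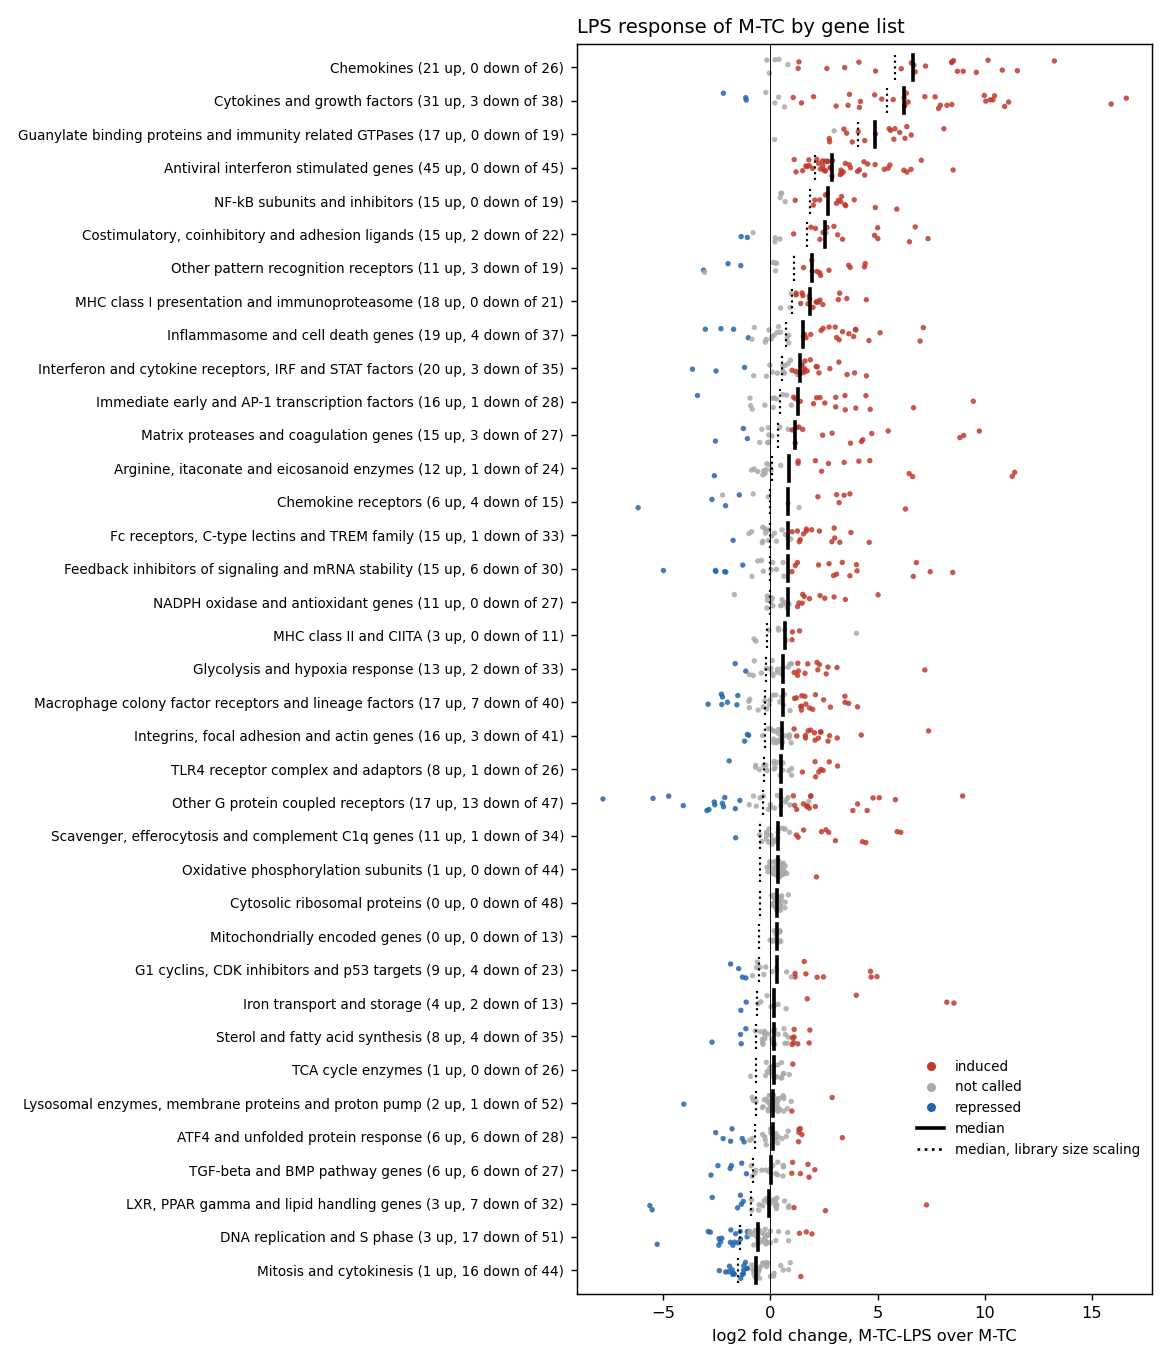
Log2 fold change of every tested member of the 37 gene lists, coloured by call, with the median under TMM (solid bar) and under library size alone (dotted bar). Chemokines have the highest median, 6.63, and mitosis genes the lowest, -0.69; library size alone moves all medians to the left.

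At the receptor itself the change was small under TMM. Library size alone put the median gene at -0.83 and so gave Tlr4 a larger fall. Under TMM, Tlr4 was at 218 and 218 CPM in M-TC and 183 and 197 CPM in M-TC-LPS (log2 fold change -0.20 ± 0.065), within a fold of 2. Ly96, which encodes MD-2, was at 5.34 and 6.43 CPM in M-TC and 10.1 and 11.4 CPM in M-TC-LPS (0.87 ± 0.14) and was not called either. In contrast the co-receptor gene Cd14 rose from 431 and 419.7 CPM to 2184 and 2175 CPM (2.36 ± 0.059). Of the adaptors, Myd88 rose from 71.7 and 72.4 CPM to 404 and 393 CPM (2.47 ± 0.055), whereas Ticam1, which encodes TRIF, was at 26.0 and 24 CPM in M-TC and 39.5 and 35.0 CPM in M-TC-LPS, below a fold of 2 (0.58 under TMM and -0.25 under library size alone). Further members moved both ways. Irak2, a kinase of the MyD88 complex, rose from 49.4 and 50.2 CPM to 446 and 429 CPM (3.13 ± 0.054), and Map3k8, the kinase upstream of ERK, from 25.2 and 25 CPM to 169 and 168 CPM (2.75 ± 0.061). Tab1, a partner of the kinase TAK1, fell from 12.2 and 11.2 CPM to 3.15 and 3.02 CPM (-1.92 ± 0.14). In the whole list of receptor complex and adaptors, 8 were induced and 1 repressed of 26 tested, with a median of 0.51 (-0.31 under library size alone). Under library size alone, 7 were induced and 5 repressed. Other sensors of microbes moved more: 11 were induced and 3 repressed of 19 tested, with a median of 1.93. Ifih1, the RNA sensor MDA5, rose from 95.3 and 100.4 CPM to 2033 and 2176 CPM. The peptidoglycan sensors Nod1 and Nod2 rose by 3.72 ± 0.076 and 4.39 ± 0.092 (log2), and Tlr3 by 3.65 ± 0.088. Mavs, the adaptor of the RNA sensors, fell by 1.97 on the log2 scale, and Tlr13 fell from 298 and 293 CPM to 108 and 119 CPM.

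Genes of NF-kB and its inhibitors moved one way: 15 of 19 tested were induced, with a median of 2.67 and a lowest member at 0.46. The strongest were Tnfaip3 and genes of IkB proteins, with the subunit gene Nfkb1 just below Nfkbie, at 3.47. Tnfaip3, the ubiquitin-editing enzyme A20, rose from 36.2 and 35.2 CPM to 2145 and 2102 CPM (5.89 ± 0.069). Nfkbiz, which encodes a nuclear IkB protein needed for secondary response genes, rose from 38.6 and 38.1 CPM to 1120.3 and 1158 CPM (4.89 ± 0.069). Nfkbia, the IkB-alpha that retains NF-kB in the cytoplasm, rose from 59.0 and 58.1 CPM to 884 and 879 CPM (3.91 ± 0.064), and Nfkbie, IkB-epsilon, from 26.8 and 25.3 CPM to 301 and 294 CPM (3.51 ± 0.062). Among immediate early and AP-1 genes, 16 were induced and 1 repressed of 28 tested, with a median of 1.28. The orphan nuclear receptor gene Nr4a3 had 4 reads in M-TC and reached 51.5 and 65.2 CPM, a ratio of 748 (exact 95% counting interval 292 to 2749). Maff, a small MAF factor, rose by 4.66 ± 0.16 and Csrnp1 by 4.46 ± 0.077 (log2). Klf10, a TGF-beta inducible factor, was the member that fell, from 23.2 and 23.5 CPM to 2.51 and 1.86 CPM.

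Of cytokines and growth factors, 31 were induced and 3 repressed of 38 tested. Their median was 6.25, or 4.08 with the 10 members that had no read in M-TC set at their bound. Il12b, Il6, Il1b, Tnf and Edn1, described above, belong to it, and the 3 members that fell were Vegfa, an angiogenic factor, Pdgfa, a mitogen of mesenchymal cells, and Tnfsf12, which encodes TWEAK. Vegfa fell from 78.6 and 71.0 CPM to 18.1 and 14.6 CPM (-2.19 ± 0.11), Pdgfa from 11.8 and 10.9 CPM to 5.36 and 4.88 CPM and Tnfsf12 from 38.5 and 39.5 CPM to 19.4 and 16.3 CPM. Of chemokines, 21 of 26 tested were induced, and 4 further listed chemokines did not pass the filter. Ccl7, a monocyte attractant, rose from 0.877 and 0.561 CPM to 759.9 and 878 CPM (10.15 ± 0.15). Ifnb1, the interferon of the TRIF route, remained a low transcript at 3 h, at 0.120 and 0.0374 CPM in M-TC and 6.15 and 7.26 CPM in M-TC-LPS, a ratio of 86.3 (exact 95% counting interval 33.3 to 319).

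The interferon stimulated genes rose together. All 45 tested members of the antiviral list were induced (45 of the 46 listed passed the filter), with a median of 2.90 and a range of 1.11 to 8.52, where 17.3% of all genes were induced. Under library size alone, 38 of them were induced. Ifi205, of the DNA-binding PYHIN family, rose from 2.99 and 2.28 CPM to 921 and 1016 CPM (8.52 ± 0.14). Oasl1, an inhibitor of Irf7 translation, rose from 5.14 and 4.60 CPM to 473 and 445 CPM (6.56 ± 0.072), and Mx1, an antiviral GTPase, from 16.9 and 20.4 CPM to 1527 and 1558 CPM (6.37 ± 0.081). Of the guanylate binding proteins and immunity related GTPases, which attack the vacuoles of intracellular pathogens, 17 of 19 tested were induced, with a median of 4.90, or 4.40 with the member that had no read in M-TC at its bound. Gbp5 rose from 7.90 and 10.7 CPM to 2464 and 2622 CPM (8.09 ± 0.096) and Iigp1 from 5.30 and 6.81 CPM to 361 and 436 CPM (6.03 ± 0.12). Tgtp1, which has a near-identical copy so that reads may have been split between them, rose by 6.28 ± 0.17 (log2). Of receptors, IRF and STAT factors, 20 were induced and 3 repressed of 35 tested. Irf7, the master regulator of type I interferon genes, rose from 68.6 and 78.7 CPM to 866 and 894 CPM, Irf1 from 47.8 and 49.7 CPM to 746 and 739 CPM and the kinase gene Jak2 from 46.5 and 45.0 CPM to 972 and 1069.6 CPM. The IL-6 receptor gene Il6ra moved opposite to its ligand, from 99.3 and 98.7 CPM to 8.02 and 7.96 CPM (-3.63 ± 0.093).

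To show the sequence beside these groups, promoters of the tested genes were taken from RefSeq on build GRCm38.p6, 250 bases before to 50 after each start, and 9905 of the 12514 genes matched by symbol, with 12622 promoters. Both strands were searched for an NF-kB site (its usual degenerate 10 base form), an interferon response element (GAAANNGAA), an AP-1 site (TGANTCA), a CRE (TGACGTCA), a CArG box and a TATA box (TATAAA). Matches of different motifs may overlap, and the AP-1 and CRE letters read the same on both strands. An NF-kB site was found in 5.17% of all promoters, 4.35% of those of repressed genes, 7.49% of those of induced genes and 10.8% of those induced over 4 on the log2 scale. Interferon response elements followed the same order, at 7.53%, 5.47%, 12.3% and 16.8%. For AP-1 the shares were 5.43%, 5.09%, 8.32% and 15.3%, and for the TATA box 7.34%, 6.42%, 10.4% and 17.7%. The CRE, at 2.96% of all, 2.57%, 3.28% and 2.1%, had no such order. Within lists, 12 of 23 promoters of NF-kB subunits and inhibitors (52.2%) held an NF-kB site. The interferon response element was found in 22 of 44 promoters of antiviral genes and 10 of 12 of the guanylate binding protein list (83.3%). A CArG box was found in 5 of 31 promoters of immediate early genes (16.1%), against 1.26% of all. These are matches of letters, described without a test.

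The stretches shown are examples chosen among promoters of reported genes that held a match. They do not stand for all leading genes, as Tnf and Il1b held only a TATA box there. The 250 bases before the start are given 5′ to 3′ on the strand of the gene, with every match in capitals and overlapping matches joined. In Il6 the capitals are an AP-1 site and, 44 to 35 bases before the start, an NF-kB site. Tnfaip3 has a TATA box, an AP-1 site and 2 NF-kB sites, the second ending 3 bases before the start, and Nfkbia an interferon response element and an NF-kB site. Cxcl10 has an interferon response element, 2 NF-kB sites and an AP-1 site, Gbp5 an interferon response element and an NF-kB site, and Ifit1, an antiviral translation inhibitor, 3 interferon response elements, of which the first 2 overlap. The stretches, on GRCm38.p6, are chr5:30012864-30013113 (plus strand) for Il6, chr10:19015411-19015660 (minus strand) for Tnfaip3, chr12:55492648-55492897 (minus strand) for Nfkbia, chr5:92348890-92349139 (minus strand) for Cxcl10, chr3:142496684-142496933 (plus strand) for Gbp5 and chr19:34640639-34640888 (plus strand) for Ifit1.
Il6: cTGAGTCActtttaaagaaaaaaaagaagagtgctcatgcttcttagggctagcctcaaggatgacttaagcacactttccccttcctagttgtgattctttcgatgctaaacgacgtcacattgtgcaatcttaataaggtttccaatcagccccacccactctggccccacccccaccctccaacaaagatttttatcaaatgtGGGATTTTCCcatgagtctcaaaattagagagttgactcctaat
Tnfaip3: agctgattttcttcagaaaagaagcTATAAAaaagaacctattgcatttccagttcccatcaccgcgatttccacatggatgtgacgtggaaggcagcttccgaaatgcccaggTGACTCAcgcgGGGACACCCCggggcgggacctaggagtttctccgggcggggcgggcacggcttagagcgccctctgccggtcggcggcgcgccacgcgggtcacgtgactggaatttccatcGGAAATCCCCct
Nfkbia: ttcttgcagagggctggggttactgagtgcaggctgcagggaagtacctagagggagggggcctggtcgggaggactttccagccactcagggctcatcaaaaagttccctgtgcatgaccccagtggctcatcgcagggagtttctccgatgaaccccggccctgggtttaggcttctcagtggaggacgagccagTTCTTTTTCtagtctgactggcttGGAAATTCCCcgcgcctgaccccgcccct
Cxcl10: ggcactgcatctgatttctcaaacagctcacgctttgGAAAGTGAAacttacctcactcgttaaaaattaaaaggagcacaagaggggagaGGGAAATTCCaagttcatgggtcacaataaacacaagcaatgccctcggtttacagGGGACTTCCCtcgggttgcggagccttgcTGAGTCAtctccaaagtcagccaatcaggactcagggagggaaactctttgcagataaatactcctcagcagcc
Gbp5: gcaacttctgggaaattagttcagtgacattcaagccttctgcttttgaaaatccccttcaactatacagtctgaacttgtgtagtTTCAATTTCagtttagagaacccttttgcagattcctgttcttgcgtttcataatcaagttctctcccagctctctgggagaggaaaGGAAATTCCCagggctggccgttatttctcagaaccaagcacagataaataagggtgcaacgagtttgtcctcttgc
Ifit1: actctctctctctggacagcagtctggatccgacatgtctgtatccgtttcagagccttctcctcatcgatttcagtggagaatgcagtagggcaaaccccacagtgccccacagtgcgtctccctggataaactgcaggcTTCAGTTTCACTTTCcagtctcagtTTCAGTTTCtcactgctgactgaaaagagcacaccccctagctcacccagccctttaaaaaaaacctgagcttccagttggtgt

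**Figure D4:**
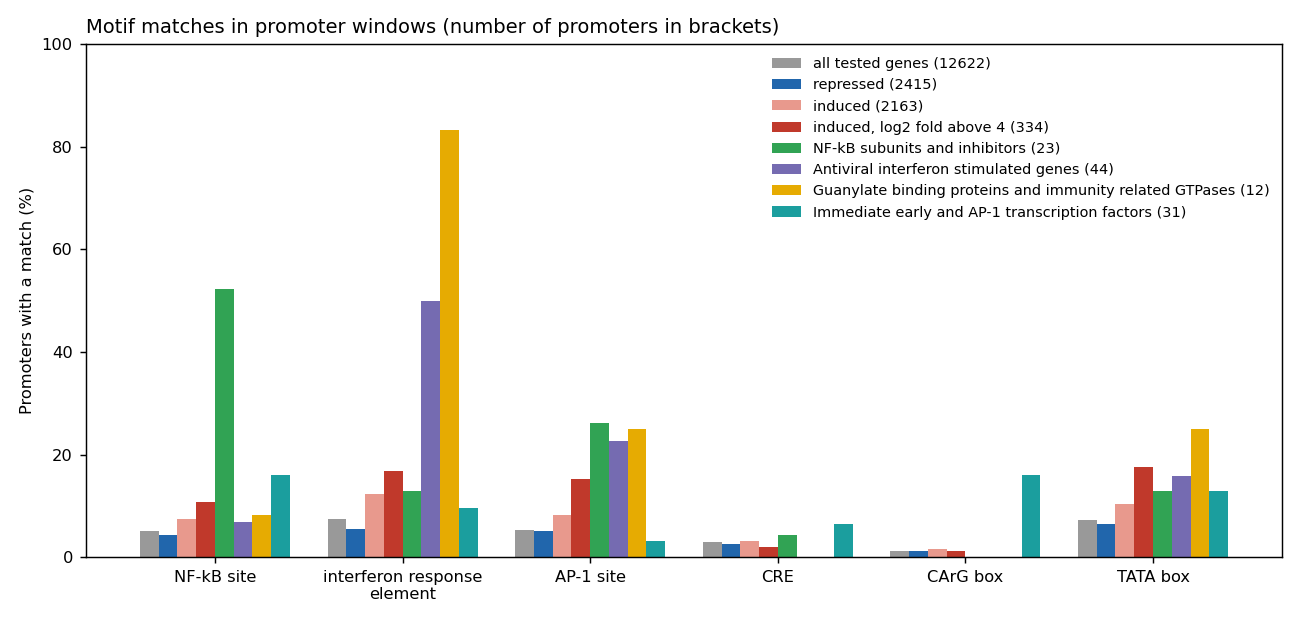
Share of promoter windows (bars, percent) with a match to each of 6 motifs, for all tested genes, repressed genes, induced genes, genes induced over 4 on the log2 scale and 4 gene lists, with the number of promoters in the legend. The NF-kB list stands out for NF-kB sites (52.2%), the guanylate binding protein list for interferon response elements (83.3%) and immediate early genes for CArG boxes (16.1%).

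Of inhibitors of signaling and mRNA stability, 15 were induced and 6 repressed of 30 tested, with a median of 0.82 (-0.0070 under library size alone). These are 50% and 20%, beside 17.3% and 18.5% of all genes, so the repressed share was near that of all genes. The induced members were led by inhibitors of cytokine receptor signaling. Socs3 rose from 2.87 and 2.77 CPM to 1057 and 994 CPM (8.50 ± 0.088), Cish from 0.399 and 0.224 CPM to 50.8 and 59.7 CPM (7.46 ± 0.15) and Socs1 from 1.12 and 0.898 CPM to 110.4 and 116 CPM (6.81 ± 0.12). The phosphatase gene Dusp2, which acts on MAP kinases, rose from 0.439 and 0.711 CPM to 62.1 and 56.6 CPM, while its relatives Dusp6 and Dusp7 fell by 2.54 and 2.13 on the log2 scale. Zfp36l2, which encodes an mRNA decay factor, had one of the largest losses, from 350.0 and 344 CPM to 12.4 and 9.41 CPM (-4.98 ± 0.081). Inpp5d, the lipid phosphatase SHIP1, fell from 204 and 204 CPM to 34.9 and 34.2 CPM (-2.56 ± 0.069).

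In arginine, itaconate and eicosanoid metabolism, 12 were induced and 1 repressed of 24 tested, with a median of 0.89. With Nos2, Ptgs2 and Acod1 rose Slc7a2, a transporter of arginine, from 4.55 and 5.05 CPM to 403 and 453 CPM (6.47 ± 0.11). Glycolysis and hypoxia genes had 13 induced and 2 repressed members of 33, with a median of 0.60 (-0.22 under library size alone). Pfkfb3, which makes the activator of phosphofructokinase, rose from 25 and 24.9 CPM to 216 and 215 CPM (3.11 ± 0.064), and hexokinase gene Hk2 from 38.9 and 38.9 CPM to 249 and 253 CPM (2.69 ± 0.065), while Pfkfb4 fell by 1.64 on the log2 scale. Mitochondrial genes hardly left the bulk. Of 26 TCA cycle enzymes 1 was induced, Dld, at 1.05 ± 0.060, and of 44 oxidative phosphorylation subunits 1, Cycs (cytochrome c), from 46.4 and 42.9 CPM to 193 and 203 CPM. Their medians were 0.15 and 0.35 (-0.68 and -0.47 under library size alone). None of 13 genes encoded by mitochondria and none of 48 ribosomal protein genes was called by DESeq2 or by edgeR, where none reached a fold of 2 at any p, and their medians were 0.31 and 0.33 (-0.52 and -0.50 under library size alone). Of 52 lysosomal genes, 2 were induced and 1 repressed, with a median of 0.15 (-0.68 under library size alone). The member that fell was Tfeb, which encodes the factor that drives lysosomal genes, from 20.2 and 20.1 CPM to 1.28 and 1.16 CPM (-4.03 ± 0.15), while the protease gene Ctsc rose from 211 and 216 CPM to 1523 and 1633 CPM (2.88 ± 0.053).

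Of LXR, PPAR gamma and lipid handling genes, 3 were induced and 7 repressed of 32 tested, which is 9.38% and 21.9% beside 17.3% and 18.5% of all genes. Ch25h, which makes 25-hydroxycholesterol, rose from 1.16 and 1.16 CPM to 163 and 199 CPM (7.28 ± 0.15). The nuclear receptor genes Rxra, Ppard and Pparg fell by 2.71, 1.53 and 1.39 on the log2 scale. Of sterol and fatty acid synthesis genes, 8 were induced and 4 repressed of 35 tested (22.9% and 11.4%), with a median of 0.17 (-0.66 under library size alone). The desaturase gene Scd2 fell from 301 and 310.1 CPM to 48.1 and 44.7 CPM. Of 13 tested genes of iron transport and storage, 4 rose and 2 fell (30.8% and 15.4%), with a median of 0.19 (-0.64 under library size alone). Lcn2, a siderophore binding protein, had 7 reads in M-TC and rose by a ratio of 314 (exact 95% counting interval 152 to 781), and Slc40a1, the iron exporter ferroportin, fell from 79.1 and 91.5 CPM to 33.8 and 32.0 CPM (-1.37 ± 0.078).

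Of NADPH oxidase and antioxidant genes, 11 of 27 tested were induced, with a median of 0.80 (-0.025 under library size alone). Slc7a11, the cystine transporter, rose from 23.2 and 18.3 CPM to 678 and 673 CPM (5.02 ± 0.10), and Sod2, mitochondrial superoxide dismutase, from 141 and 136 CPM to 1543 and 1579.9 CPM. Of unfolded protein response genes, 6 were induced and 6 repressed of 28 (21.4% each, near the 17.3% and 18.5% of all genes), with a median of 0.11 (-0.72 under library size alone). Ppp1r15a, a phosphatase subunit that restores translation, rose by 3.36 ± 0.070, and the stress kinase gene Eif2ak3, PERK, fell from 32.9 and 33.9 CPM to 5.22 and 6.28 CPM.

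Receptor genes moved both ways. Among chemokine receptors, 6 were induced and 4 repressed of 15 tested (40% and 26.7%, beside 17.3% and 18.5% of all genes). Ccrl2, a chemerin binding receptor, rose from 10.7 and 11.6 CPM to 867 and 889.8 CPM (6.30 ± 0.074). Cxcr4, the receptor for CXCL12, fell from 127 and 122 CPM to 1.67 and 1.80 CPM (-6.17 ± 0.11; edgeR, BH-adjusted p = 5.3e-22). The monocyte receptor genes Cx3cr1 and Ccr2 fell from 119 and 107 CPM to 28.1 and 25 CPM and from 9.85 and 9.54 CPM to 1.67 and 1.22 CPM. Of other G protein coupled receptors, 17 were induced and 13 repressed of 47 tested (36.2% and 27.7%), with a median of 0.49 (-0.33 under library size alone). The adenosine receptor gene Adora2a rose from 0.399 and 0.112 CPM to 127 and 129.7 CPM (8.97 ± 0.20), the formyl peptide receptor genes Fpr1 and Fpr2 by 5.08 ± 0.093 and 5.83 ± 0.11, and Hcar2, a niacin receptor, by 4.79 ± 0.095. Cnr2, the cannabinoid receptor of leukocytes, fell from 35.6 and 38 CPM to 0.148 and 0.174 CPM, a ratio of 230.5 (exact 95% counting interval 106 to 629) with 6 reads left in M-TC-LPS. Lpar5, a lysophosphatidic acid receptor, fell from 17.7 and 18.2 CPM to 0.443 and 0.349 CPM, and Gpr183, the oxysterol receptor, from 8.29 and 9.02 CPM to 0.492 and 0.116 CPM. Gpr183 thus fell as Ch25h, in the pathway of its ligand, rose.

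Csf1r, the M-CSF receptor gene, was at 2894 and 2823 CPM in M-TC and 2891 and 2771 CPM in M-TC-LPS (log2 fold change -0.014 ± 0.051, edgeR, BH-adjusted p = 8.2e-01; -0.84 under library size alone). Of colony factor receptors and lineage factors, 17 were induced and 7 repressed of 40 tested (42.5% and 17.5%). The shares of all genes were 17.3% and 18.5%, and the list median was 0.57 (-0.26 under library size alone). Tfec, of the MiT family, rose from 19.1 and 17.2 CPM to 300.4 and 306 CPM (4.07 ± 0.064), and Cebpd and Batf rose by 3.48 ± 0.097 and 3.48 ± 0.14 (log2). Cebpa fell from 23.3 and 24.4 CPM to 4.92 and 4.88 CPM and Bhlhe41 from 128 and 119 CPM to 16.6 and 16.5 CPM. Thus Cebpd and Cebpa, of one family, moved opposite ways. Of scavenger, efferocytosis and complement C1q genes, 11 were induced and 1 repressed of 34 tested, with a median of 0.36 (-0.47 under library size alone). The scavenger receptor gene Marco rose from 1.87 and 2.73 CPM to 51.9 and 49.6 CPM and complement factor B, Cfb, from 1.60 and 2.99 CPM to 137 and 143 CPM, while Cd163, the haemoglobin scavenger receptor, fell from 7.46 and 7.86 CPM to 2.95 and 1.98 CPM. Of Fc receptors, C-type lectins and TREM family members, 15 were induced and 1 repressed of 33 tested. Clec4e, the receptor Mincle, rose from 189 and 181 CPM to 4406 and 4639 CPM (4.61 ± 0.067), and Fcgr2b, the inhibitory Fc receptor, from 35.9 and 35.9 CPM to 350.5 and 328 CPM.

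For antigen presentation, most of the class I list was induced. Of MHC class I and immunoproteasome genes, 18 of 21 tested were induced, with a median of 1.84. The peptide transporter gene Tap1 rose from 35.4 and 40.3 CPM to 450.1 and 448 CPM and Nlrc5, the transactivator of class I genes, from 47.8 and 51.2 CPM to 442 and 449 CPM. H2-Q6 and H2-Q7, near-identical class I genes between which reads may have been split, rose by 3.23 ± 0.12 and 4.48 ± 0.17 (log2). Of class II genes, 3 of 11 tested were induced, with a median of 0.67 (-0.16 under library size alone), and H2-Ab1 and Cd74 passed a fold of 2 narrowly, at 1.03 ± 0.080 and 1.01 ± 0.071. Under library size alone, 0 class II genes were induced and 2 repressed. Without M-TC replicate 1 or M-TC-LPS replicate 1, 1 class II gene was induced, and without M-TC-LPS replicate 2, 1 was repressed. Of costimulatory and adhesion ligands, 15 were induced and 2 repressed of 22 tested. Cd40 rose from 7.74 and 5.91 CPM to 728 and 743 CPM (6.76 ± 0.090) and the checkpoint ligand gene Cd274, PD-L1, from 28.5 and 29.9 CPM to 919.8 and 968 CPM (5.01 ± 0.058). The checkpoint genes Vsir and Havcr2 fell by 1.07 and 1.36 on the log2 scale. Of inflammasome and cell death genes, 19 were induced and 4 repressed of 37 tested, with a median of 1.54. The survival genes Bcl2a1a and Bcl2a1d, near-identical copies whose reads may have been split, rose by 7.13 ± 0.18 and 6.98 ± 0.11. Mefv, pyrin, rose from 1.08 and 1.01 CPM to 25.6 and 25.1 CPM. Nlrp1b and the caspase gene Casp9 fell from 18.3 and 18.4 CPM to 2.26 and 2.21 CPM and from 42.9 and 42.2 CPM to 9.35 and 7.79 CPM.

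Of matrix proteases and coagulation genes, 15 were induced and 3 repressed of 27 tested, with a median of 1.16. The collagenase gene Mmp13 rose from 2.95 and 2.99 CPM to 1466 and 1619.6 CPM (9.02 ± 0.091) and F3, tissue factor, from 0.199 and 0.262 CPM to 9.69 and 11.8 CPM. Thbd, thrombomodulin, an anticoagulant receptor, fell from 6.38 and 7.18 CPM to 1.03 and 1.28 CPM, and Plau, urokinase, from 16.3 and 16.2 CPM to 8.27 and 7.15 CPM. Tissue factor and its counterpart thrombomodulin thus moved apart. Of integrins and actin genes, 16 were induced and 3 repressed of 41 tested, with a median of 0.56 (-0.27 under library size alone). Marcksl1, an actin binding MARCKS relative, rose from 143 and 149 CPM to 2776 and 2736 CPM, and Cd44, the hyaluronan receptor, from 142 and 142 CPM to 1217 and 1255 CPM. Of TGF-beta and BMP genes, 6 were induced and 6 repressed of 27 tested (22.2% each, near the shares over all genes), with a median of 0.012 (-0.81 under library size alone). The receptor gene Tgfbr1 fell from 176 and 176 CPM to 25.6 and 26.3 CPM (-2.76 ± 0.064) and its effector gene Smad3 from 23.4 and 21.2 CPM to 5.95 and 6.74 CPM, while Skil, an inhibitor of SMADs, rose from 87.6 and 83.4 CPM to 331 and 390.2 CPM. Genes of other inhibitors moved both ways: Ski, Smad6 and Smad7 had log2 fold changes of -2.44, -1.87 and -1.33, and Bambi one of 1.75.

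The proliferation lists had the lowest medians. In DNA replication, 3 were induced and 17 repressed of 51 tested, with a median of -0.58, and in mitosis, 1 was induced and 16 were repressed of 44 tested, with a median of -0.69, while 18.5% of all genes were repressed. Under library size alone, 1 was induced and 39 repressed in DNA replication, and 0 and 33 in mitosis. E2f2, an activator of S phase genes, fell from 45.4 and 45.8 CPM to 1.28 and 1.05 CPM (-5.28 ± 0.14). Cdc6, the replication licensing factor, fell from 6.70 and 4.86 CPM to 0.738 and 0.930 CPM and Brca1 from 21.2 and 21.2 CPM to 3.20 and 4.94 CPM. Other replication genes rose under TMM: Mcm10 went from 14 and 15.6 CPM to 55.3 and 58.7 CPM and Orc1, of the origin recognition complex, from 2.23 and 2.51 CPM to 7.38 and 7.84 CPM. In mitosis, Kif23 fell from 47.7 and 47.8 CPM to 9.69 and 8.60 CPM and Cenpf from 53.3 and 47.7 CPM to 12.1 and 11.7 CPM. The member induced under TMM, but not by library size alone, was the kinetochore motor gene Cenpe, from 65.1 and 62.0 CPM to 159 and 181 CPM. Of G1 cyclins, CDK inhibitors and p53 targets, 9 were induced and 4 repressed of 23 tested (39.1% and 17.4%). The shares of all genes were 17.3% and 18.5%, and the list median was 0.29 (-0.52 under library size alone). The CDK inhibitor gene Cdkn1a, p21, rose from 63.8 and 71.6 CPM to 1693 and 1757 CPM (4.67 ± 0.063). D-type cyclins moved apart, as Ccnd2 rose from 10.7 and 9.24 CPM to 244 and 276 CPM and Ccnd1 fell from 51.1 and 51.1 CPM to 14.2 and 14.1 CPM.

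Over all genes, the most repressed at 10 CPM or more that were also called in M-noTC were Cnr2, Zfp395, Cxcr4, Slc26a11, Bmf, Lyl1, Vgll4, Lpar5, Fam214a, E2f2, Arrdc3 and Etl4. Zfp395, a zinc finger gene, had 5 reads left in M-TC-LPS and fell from 11.8 and 12.6 CPM to 0.148 and 0.116 CPM, a ratio of 92.0 (exact 95% counting interval 39.2 to 284). Slc26a11, an anion transporter, fell from 28.4 and 30.2 CPM to 0.492 and 0.349 CPM (-6.09 ± 0.23), and Bmf, which encodes a death-promoting BCL2 relative, from 27.9 and 24.8 CPM to 0.394 and 0.523 CPM (-5.85 ± 0.21). Lyl1, a haematopoietic basic helix-loop-helix factor, fell from 56.2 and 57.4 CPM to 0.984 and 1.16 CPM (-5.73 ± 0.14). The libraries of M-TC and M-TC-LPS were far apart for each of these genes. Vgll4, a partner of TEAD factors, fell from 15.7 and 13.8 CPM to 0.344 and 0.291 CPM, Arrdc3, an arrestin domain protein, from 21.6 and 21.1 CPM to 0.295 and 0.872 CPM and Etl4 from 17.1 and 15.2 CPM to 0.689 and 0.116 CPM. Among the largest losses in CPM, Slc5a3, the myo-inositol transporter, fell from 372 and 357 CPM to 19.7 and 23.5 CPM (-4.08 ± 0.094) and Slco4a1, an organic anion transporter, from 531 and 499 CPM to 103 and 92.0 CPM (-2.40 ± 0.063). Ahnak, Lipa and Sirpa also had large losses in CPM but within a fold of 2 under TMM, at -0.54 ± 0.14, -0.37 ± 0.045 and -0.37 ± 0.051. Their falls were larger by library size alone. Across fold classes, genes induced over 4 on the log2 scale (363) had a median span of 15.9 kb, 3.55 kb of exons and 7 exons, against 23.8 kb, 4.47 kb and 10 for all tested genes and 22 kb, 4.62 kb and 8 for those repressed below -2 (938).

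The largest fitted decrease was that of Myh6, a cardiac myosin heavy chain, at 22 and 12 CPM in M-TC and 0 and 0 CPM in M-TC-LPS, at least 106-fold. The replicates of M-TC differed by almost as much as their lower value, and DESeq2 on all 16 libraries did not call it. Of the repressed genes that were not also called repressed by LPS in M-noTC, 39 were under 10% of their M-TC level in both M-TC-LPS and M-noTC. On the heart muscle list were 21 of these. In M-noTC the list without Fabp3 summed to 2.19 and 2.0 CPM, and in GM-TC to 72.0 and 42.4 CPM. Without the heart muscle list, 2288 genes were repressed. Whether these transcripts belong to the cultured cells was not tested.

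To see how far the response was that of M-CSF macrophages in general, it was set beside that of M-noTC, where 1984 genes were induced (15.9%) and 2042 repressed (16.3%). The M-TC and M-noTC groups share no library. Of the 2165 genes induced in M-TC, 1818 were also induced in M-noTC, which is 84.0% of the M-TC and 91.6% of the M-noTC list, and 1751 were repressed in both, 75.6% and 85.7%. All but 4 of the genes called on both dishes had the same direction. By the test of the difference itself, the LPS response was more than 2-fold higher in M-TC for 108 genes (0.863%) and lower for 47 (0.376%). The lower count was 12 by DESeq2 fitted to the 16 libraries, 14 by DESeq2 fitted to the compared groups, and 28 without M-TC replicate 1 or M-TC-LPS replicate 1. Of the 108, 91 were induced in M-TC. The cytokine list held 11 of them, the chemokine list 9 and the immediate early list 6.

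Of the 108 genes, 103 had a lower level in M-TC than in M-noTC, as did 51.8% of all tested genes, and 77 had a higher level in M-TC-LPS than in M-noTC-LPS, as did 49.9% of all. Both counts are a description, since a larger response selects for them. For Il12b the means were 4.99 CPM in M-noTC and 319 CPM in M-noTC-LPS, against 0 and 519.5 CPM in M-TC and M-TC-LPS (difference of the log2 fold changes 10.58 ± 0.62, a fitted value that depends on the absence of reads in M-TC). For Il6 they were 5.69 and 1435 CPM, against 0.0199 and 1493 CPM (7.89 ± 0.55). Il1b stood at 13.2 CPM in M-noTC and 0.940 CPM in M-TC (4.45 ± 0.17). Serpinb2, plasminogen activator inhibitor 2, and Ptx3, a pentraxin, had differences of 5.68 ± 0.61 and 5.41 ± 0.53. A further fit subtracted 1% of the mean CPM of the other groups from each library outside the TC steady state groups. Of the 108, 66 were still called. The differences were then 0.72 for Il12b, 3.58 for Il6, -0.36 for Il1b, 1.65 for Serpinb2 and 0.40 for Ptx3, and none of them was called. Those of Il6 and Serpinb2 were still above 2-fold, without a BH-adjusted p under 0.05. Whether libraries shared reads was not tested. The 47 with a lower response in M-TC were all still called after that subtraction, when 66 were called lower. It was applied to M-noTC and M-TC-LPS but not to M-TC, which tends to lower the difference, so it could not test these calls. Of the 47, 31 were repressed in M-TC, among them Klhl42 (-1.95 ± 0.42), Vgll4 (-1.73 ± 0.49) and Jmy (-1.39 ± 0.29), and 4 induced, among them the serpin gene Serpina3f (-1.24 ± 0.39).

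**Figure D5:**
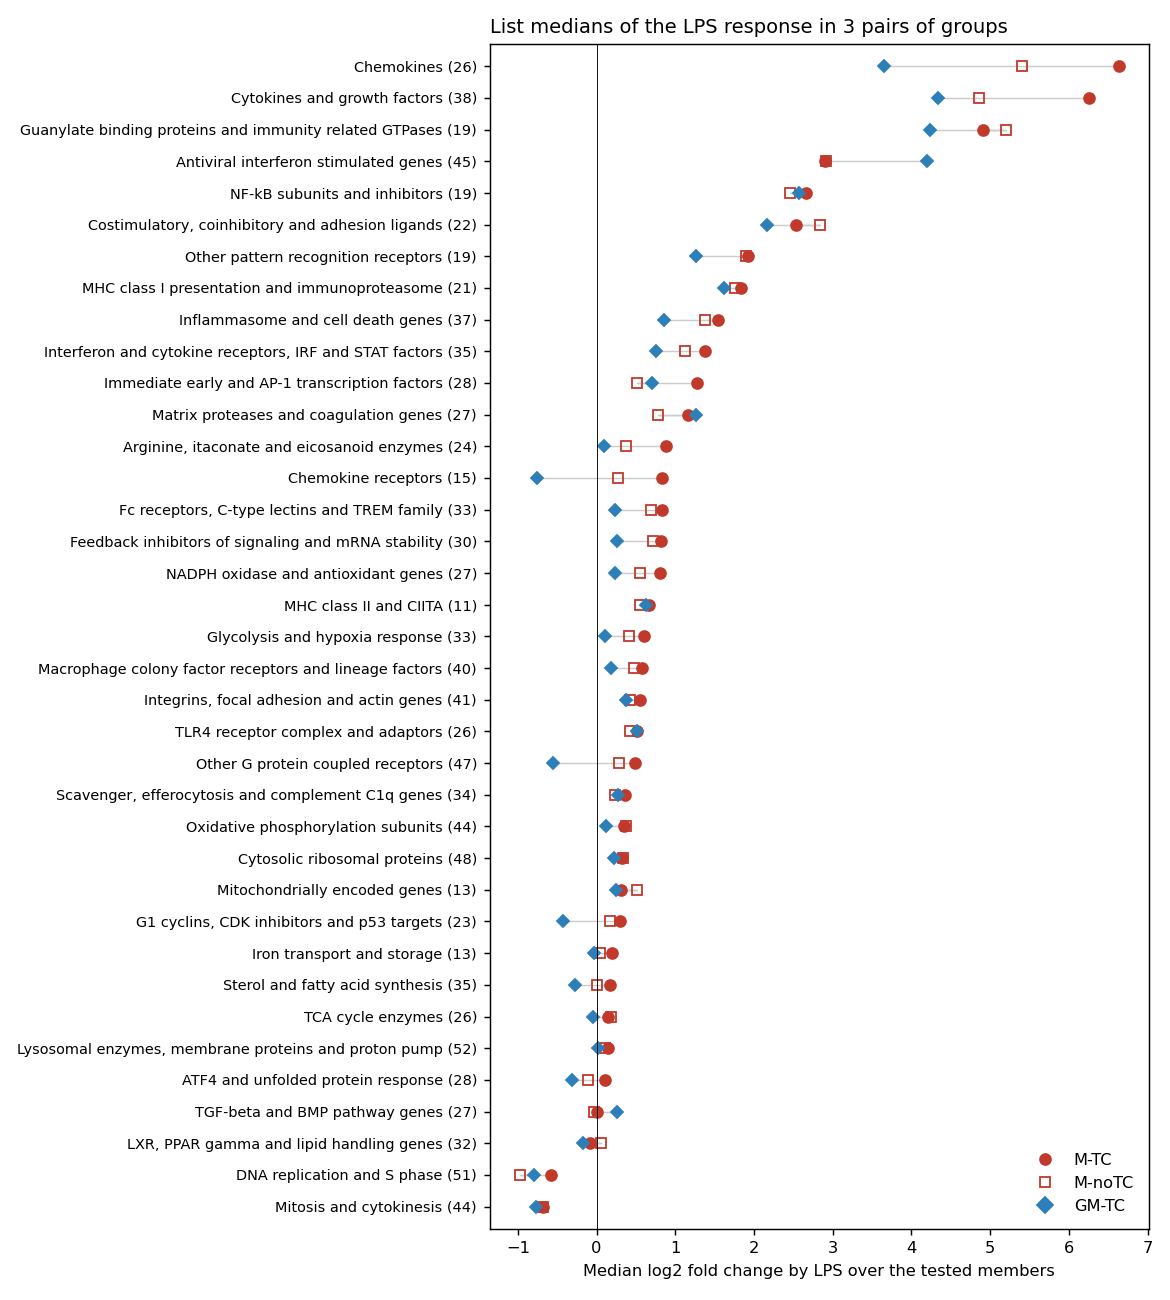
Median log2 fold change by LPS over the tested members of each list in M-TC (filled circles), M-noTC (open squares) and GM-TC (diamonds), ordered by M-TC. The antiviral list has a higher median in GM-TC (4.20) than in M-TC (2.90), and the chemokine list a lower one (3.65 against 6.63).

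In GM-TC, 13.4% of genes were induced and 12.7% repressed by LPS. Of the genes induced in M-TC, 1345 were induced in GM-TC (62.1% of the M-TC and 80.4% of the GM-TC list), and 1182 were repressed in both (51.1% and 74.5%). Opposite calls were made for 17 induced and 16 repressed genes, among them Ppargc1b, a coactivator of mitochondrial genes, with a log2 fold change of 1.10 in M-TC and -1.64 in GM-TC. Under library size alone Ppargc1b was at 0.28 in M-TC and no longer called. By the test of the difference, the LPS response was more than 2-fold higher in M-TC for 769 genes (6.15%) and lower for 825 (6.59%). Scaled by library size alone, it was higher for 468 and lower for 1567. Of the 769, 596 were induced in M-TC, and of the 825, 578 were repressed.

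In signed log2 fold change, where a higher value can also be a weaker repression, 15 of 28 immediate early genes were higher and 3 lower in M-TC than in GM-TC, as were 10 and 1 of 26 chemokines and 14 and 4 of 40 lineage factors. Of the lineage factors, 7 were repressed in M-TC and 11 in GM-TC. Immediate early genes started lower in M-TC, with 6 of 28 above GM-TC at steady state and 16 of 28 upon LPS challenge, and chemokines were above it for 10 and 18 of 26. Mycl, of the MYC family, was at 0.359 and 0.262 CPM in M-TC and 68.4 and 71.2 CPM in M-TC-LPS, while its means in GM-TC and GM-TC-LPS were 2.60 and 6.54 CPM (difference 6.48 ± 0.28). Mmp13 was at 93.3 CPM in GM-TC and 604 CPM in GM-TC-LPS (6.32 ± 0.11), and Cish at 74.3 and 206 CPM (5.98 ± 0.19). For both, the level at steady state was much lower in M-TC. For Adamts4, Sele and Rgs16, which had no read in M-TC, the means in GM-TC-LPS were 12.1, 0.286 and 2.38 CPM, below those of M-TC-LPS. Il12b and Il1b stood higher there, at 3355 and 6163 CPM in GM-TC-LPS.

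The antiviral genes went the other way. Of 45 tested, 22 had a lower and 3 a higher response in M-TC than in GM-TC, and the median was 2.90 in M-TC and 4.20 in GM-TC. Their levels, however, were higher in M-TC before and after LPS: 43 of 45 were above GM-TC at steady state and 42 of 45 upon LPS challenge, where 48.5% and 48.0% of all genes were. Ifit1 was at 96.1 and 98.8 CPM in M-TC and 4309.7 and 4495 CPM in M-TC-LPS, against means of 5.06 and 3749 CPM in GM-TC and GM-TC-LPS (difference of the log2 fold changes -4.03 ± 0.086). Cxcl10 had means of 0.519 and 3844 CPM there, against 25.1 and 10604 CPM in M-TC and M-TC-LPS (-4.07 ± 0.19). Rsad2 had 11.9 and 8419 CPM (-2.43 ± 0.096), and Ifit3b 0.202 and 86.8 CPM (-5.03 ± 0.27), a gene with close copies whose reads may have been split. So a smaller fold in M-TC stood beside a higher level in M-TC-LPS for these 4 genes. Arl4c, a small GTPase, differed on the repressed side, from 72.4 and 75.8 CPM to 3.99 and 3.72 CPM in M-TC and at 110.2 and 90.7 CPM in GM-TC and GM-TC-LPS (-3.98 ± 0.15).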

How the data were processed

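RNA-seq of 16 BMDM libraries in 8 groups of 2 was used, with groups taken from the sample titles. Per the labels and the study's methods, the authors aligned reads with HISAT2 and quantified genes with RSEM, and the submitters' processing notes also name fastp 0.18.0, Bowtie2 2.2.8 and StringTie 1.3.1. The genome build of the counts is not given in the sources used here. The deposited values are expected counts without normalization for 22287 genes, rounded here to whole counts. edgeR 4.0.16 (R 4.3.3) was fitted over all 16 libraries without a replicate block, with TMM factors and its expression filter, and calls needed a BH-adjusted p under 0.05 and a fold above 2. The study's own choice, DESeq2 (here 1.42.0), was an alternative, as were other scalings, no filter, only the libraries of the comparison, unadjusted p, fold thresholds, a replicate block and leaving out each replicate. M-TC and M-TC-LPS libraries of the same number did not deviate together (correlation across genes -0.025). The common biological coefficient of variation was 4.75%, and ± is the SE of a fitted log2 value. A floor of 3 counts was 0.112 to 0.174 CPM in these 4 libraries, and intervals and floors cover counting error only. The tests were also run on simulated counts in which only a small share of genes changed, so that run cannot address the choice of scaling. The single genes reported are, in each gene list, up to 4 per direction with the largest change at 1 CPM or more without overlap, 10 fixed genes (the TLR4 route, the cytokines of the study's RT-PCR and Csf1r), the 12 most induced and 12 most repressed at 10 CPM or more that were called alike in M-noTC, the 6 most repressed of all, the 6 largest gains and losses in CPM, and up to 4 per direction with the largest difference to M-noTC and GM-TC. Some genes that the rule picked are not reported here. The members, gene lists, motifs and this rule were chosen with earlier results of these data known. Gene spans and exons came from the GENCODE annotation.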

Additional observations from a re-analysis of the deposited data

Results flagged for a closer look

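These genes were singled out because the test of the difference between LPS responses called them. Against M-noTC, the log2 fold change in M-TC was higher by 10.58 for Il12b, 7.89 for Il6, 5.68 for Serpinb2 and 5.41 for Ptx3. These are fitted values of genes with few or no reads in M-TC, and none was called after the subtraction of reads described above. The log2 fold change differed by -1.95 for Klhl42, -1.73 for Vgll4, -1.39 for Jmy and -1.24 for Serpina3f. These 4 were still called after the subtraction, which spared M-TC but not M-noTC and so could not test a lower response. Against GM-TC, the difference was 9.12 for Sele, 7.76 for Adamts4 and 7.58 for Rgs16, fitted values that depend on the absence of reads in M-TC, and 6.48 for Mycl. It was -5.03 for Ifit3b, -4.07 for Cxcl10, -4.03 for Ifit1 and -3.98 for Arl4c. The groups have 2 libraries each, so single libraries were not screened as outliers.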

How the results depend on the processing

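Library size alone gave 1188 induced and 5216 repressed genes, and 468 with a higher and 1567 with a lower response than GM-TC. It turned 19 list medians negative, in the order of the lists from TLR4 to mitochondrially encoded genes -0.31, -0.33, -0.0070, -0.22, -0.68, -0.47, -0.50, -0.68, -0.52, -0.26, -0.47, -0.66, -0.16, -0.025, -0.81, -0.27, -0.72, -0.64, -0.52, and Fth1 to -0.092 and Ticam1 to -0.25. The TGF-beta median was -0.043 with only the libraries of the comparison. The replicate block gave 2161 induced and 2307 repressed genes, and the numbers were not taken as pairs. Leaving out a replicate gave 2128 to 2155 induced and 2213 to 2262 repressed genes. Against M-noTC, the subtraction left 69 genes with a higher response, unadjusted p gave 181 higher and 139 lower, and 14 and 12 were lower by DESeq2 on the libraries of the comparison and on all 16, against 47. Without M-TC replicate 1 or M-TC-LPS replicate 1, 28 were lower, and over all leave-one-out fits 28 to 45. DESeq2 gave 2059 to 2153 induced and 2108 to 2248 repressed genes. A fold above 1.5 gave 3107 and 3368, and a test against a fold of 2 gave 1857 and 1621. Of 234 single genes, 1 lost its call under DESeq2 on all libraries (Myh6) and 2 with the libraries of the comparison (Egln3 and Cdkn2b). Egln3 also lost its call without M-TC replicate 1 or M-TC-LPS replicate 1. Leaving out a library moved the counts of called genes by up to 2 in the immediate early, glycolysis, TCA, mitosis, Fc receptor and class II lists. Library size alone changed the list counts more, and 38 of 74 counts of induced or repressed members were marked as moved. Sterol and fatty acid synthesis genes then had 1 induced and 14 repressed members, class II genes 0 and 2, and antiviral genes 38 and 0. The cause of these changes was not tested. With 2 libraries a group, small changes of genes near the floor were not detectable.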
